A study of Mus musculus with 64 samples.

Results

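β-catenin occupancy was compared between 2 states of one wild-type mouse embryonic stem cell line, HM1, in 6 of the 64 ChIP–seq samples of the series. The 6 libraries, each immunoprecipitated with a β-catenin antibody, were 3 biological replicates of naive embryonic stem cells (naive ESC) and 3 of caudal epiblast-like cells (CEpiLC), chosen by their labels and not by any measured value. Naive ESC were held in 2i medium, which combines the GSK3 inhibitor CHIR99021 with the MEK inhibitor PD0325901. CEpiLC came from the same line after 2 days in bFGF and LGK974, an inhibitor of WNT secretion, followed by CHIR99021 in the same medium until day 3. Both states were therefore fixed under GSK3 inhibition, while bFGF and LGK974 were given to CEpiLC and PD0325901 to naive ESC. A single line of strain 129 was used, so differences between lines cannot be seen. No expression data of these cells were used here, so the state of each culture rests on its label.

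β-catenin is the transcriptional co-activator of the canonical WNT pathway. It carries no DNA-binding domain of its own and is recruited mainly by the HMG-box factors TCF7, LEF1, TCF7L1 and TCF7L2, which recognise the sequence CTTTGAA or CTTTGAT. GSK3 inhibition stabilises β-catenin: in naive ESC this relieves TCF7L1-mediated repression and sustains self-renewal, whereas in the posterior epiblast WNT signalling induces Cdx and Hox genes and the mesodermal programme.

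The measurements were lists of peaks called separately in each library, with a fold enrichment over local background per peak. The lists held 49737, 222062 and 76699 peaks in naive ESC replicates 1, 2 and 3, and 20453, 15201 and 10930 peaks in CEpiLC replicates 1, 2 and 3. The read depth behind them is unknown. To compare lists of equal length, the 10930 peaks with the highest deposited −log10 p were kept in each library. The median fold enrichment of these peaks was 8.82 to 13.6 in naive ESC and 5.60 to 7.45 in CEpiLC, so peak height and state moved together, and the part of this in the results below was not tested. Naive ESC replicate 1 stood apart in that it had 7 peaks over coding exons of Tfap2a, 7 of Tfap2c and 8 of Tcf7l1, with folds up to 99.8. At Tfap2c the other 5 libraries had none, and at Tfap2a their highest fold was 6.64. CEpiLC replicate 1 had 6 such peaks at Tcf7l1.

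Overlapping peaks of the 6 equal lists merged into 31558 sites. A site with a peak in all 3 CEpiLC lists and no naive list was called gained, one with a peak in all 3 naive lists and no CEpiLC list lost, and one with a peak in all 6 shared. There were 2777 gained sites (8.80% of merged sites), 3155 lost sites (10.00%) and 1486 shared sites (4.71%). A further 16162 sites had a peak in 1 library only. Base pairs covered by peaks overlapped more within a state than between states: the mean Jaccard index was 0.401 within naive ESC, 0.369 within CEpiLC and 0.125 between them, where the highest single value was 0.165. An exact one-sided permutation test over the 10 ways to split the 6 libraries gave p = 0.1, the smallest value it can give.

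Lost sites were more often empty in the other state than gained sites. Of the lost sites, 2843 of 3155 (90.1%) had no peak in the complete list of any CEpiLC library. Of the gained sites, 1115 of 2777 (40.2%) had no peak in the complete list of any naive library, and 280 had one in all 3. The complete naive lists held 48.2% of gained sites in replicate 1, 25.0% in replicate 2 and 28.3% in replicate 3, with median folds of 5.28, 4.66 and 4.75 there. Replicate 1 thus held the most gained sites although its list was the shortest of the naive lists. Without replicate 1 of both states, 2196 gained sites had no peak in the complete naive lists. The median folds of the same gained sites in CEpiLC were 8.79, 8.21 and 7.25. Since the complete naive lists are longer than the CEpiLC lists, these 2 shares were not measured at equal depth.

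The sequences around the summits of the strongest sites show what the 3 classes look like. The 2 best-ranked sites of each class among those with no peak in the complete lists of the other state are printed on the plus strand of mm10, with the TCF words CTTTGAA and CTTTGAT and the SOX words CATTGT and CTTTGT in capitals on either strand. The gained ones lie nearest to Pgr (chr9:8882912-8883032) and Zc2hc1a (chr3:7467787-7467907), the lost ones to Fancm (chr12:65115081-65115201) and Thap8 (chr7:30266117-30266237), and the shared ones to Lrmda (chr14:22144168-22144288) and Cenpx (chr11:120707291-120707411). Pgr, gained, and Cenpx, shared, held TCF words and the other 4 neither kind. The Pgr, Zc2hc1a and Fancm sites belong to groups of near-copy sequences described below, so these windows do not stand for their classes.
Pgr, gained: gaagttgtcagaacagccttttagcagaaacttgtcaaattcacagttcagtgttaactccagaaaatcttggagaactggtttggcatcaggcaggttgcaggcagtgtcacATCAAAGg
Zc2hc1a, gained: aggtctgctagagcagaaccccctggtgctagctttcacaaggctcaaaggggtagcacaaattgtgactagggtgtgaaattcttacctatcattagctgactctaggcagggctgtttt
Fancm, lost: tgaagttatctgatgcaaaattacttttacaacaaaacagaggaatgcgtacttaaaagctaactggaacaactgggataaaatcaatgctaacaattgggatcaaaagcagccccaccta
Thap8, lost: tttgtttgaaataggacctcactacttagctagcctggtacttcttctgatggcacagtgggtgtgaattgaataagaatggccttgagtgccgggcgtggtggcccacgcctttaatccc
Lrmda, shared: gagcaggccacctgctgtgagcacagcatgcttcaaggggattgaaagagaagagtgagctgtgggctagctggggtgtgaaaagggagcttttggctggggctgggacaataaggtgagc
Cenpx, shared: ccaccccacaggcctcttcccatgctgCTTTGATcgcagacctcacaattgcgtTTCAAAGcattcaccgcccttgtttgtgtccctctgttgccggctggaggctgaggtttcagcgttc

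Sites at genes of known function were chosen next, after their values were seen, because they carry the comparison at the loci of the tissue. The first is a gained site in the Cdx2 locus (chr5:147315701-147315821), upstream of the Cdx2 gene and nearest to the start of Urad. The others are gained sites at Hoxa3 (chr6:52199955-52200075) and Msgn1 (chr12:11209065-11209185), a lost site upstream of Tfcp2l1 (chr1:118625621-118625741) and the shared site over the Sp5 start site (chr2:70474876-70474996). The Cdx2 and Msgn1 windows held 2 TCF words each, and the Sp5 window a TCF word beside a SOX word.
Cdx2, gained: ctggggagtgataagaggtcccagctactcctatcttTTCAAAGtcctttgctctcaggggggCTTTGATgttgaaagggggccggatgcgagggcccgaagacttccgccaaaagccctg
Hoxa3, gained: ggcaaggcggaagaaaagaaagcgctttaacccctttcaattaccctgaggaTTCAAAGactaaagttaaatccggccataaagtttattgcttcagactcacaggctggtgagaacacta
Msgn1, gained: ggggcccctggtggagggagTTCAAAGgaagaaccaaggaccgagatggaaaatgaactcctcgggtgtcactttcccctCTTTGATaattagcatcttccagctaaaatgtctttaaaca
Tfcp2l1, lost: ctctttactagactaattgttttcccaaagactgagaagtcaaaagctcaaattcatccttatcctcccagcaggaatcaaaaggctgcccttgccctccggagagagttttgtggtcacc
Sp5, shared: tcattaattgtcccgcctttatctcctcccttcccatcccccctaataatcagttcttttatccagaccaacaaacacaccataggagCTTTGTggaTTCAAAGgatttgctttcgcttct

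Gained sites were placed at the genes of the posterior body. A locus was taken as the gene body with 10 kb upstream of it. Of all 21938 protein-coding loci, 7.49% held a gained site, 8.04% a lost site and 3.80% a shared site. Of 39 Hox genes, 20 (51.3%) held a gained site, none a lost site and 2 a shared site. Neighbouring Hox loci overlap, and these counts rest on 18 distinct gained sites. Of 14 caudal epiblast genes, 6 held a gained, 1 a lost and 6 a shared site. Of 19 primitive streak and mesoderm genes, 11 held a gained, 2 a lost and 3 a shared site. Restricted to gained sites with no peak in the complete naive lists, the counts were 6 of 39, 2 of 14 and 5 of 19, against 2.79% of all loci, and among the 18 WNT pathway genes there was none.

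At Hoxa3 and Hoxa4, which pattern the neck and upper trunk, a gained site in an intron (chr6:52199225-52200712), nearest to the Hoxa5 start, had folds of 27.5, 15.7 and 11.1 in the CEpiLC libraries and a peak of 4.82 in naive ESC replicate 1. A site 1.92 kb upstream of Hoxb1, the hindbrain segment gene, had folds of 11.5, 9.68 and 10.7 in CEpiLC and no naive peak. At Hoxb2 the folds were 14.0, 7.51 and 7.02, with a naive peak of 4.08 in replicate 1. In all 3 cases the CEpiLC values lay above any naive value. A shared site 6.39 kb upstream of Hoxb4 went the other way, with 14.4, 9.43 and 9.92 in naive ESC against 4.94, 6.75 and 3.95 in CEpiLC.

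Cdx2, a caudal homeobox gene that activates posterior Hox genes, held sites of both kinds. The locus held 2 gained sites and 1 shared site. The better-ranked gained site, 8.49 kb upstream of the gene start, had folds of 16.6, 13.9 and 9.81 in CEpiLC and no naive peak. The shared site, in a Cdx2 intron 2.83 kb from the start, had 104.0, 70.8 and 109.2 in naive ESC against 32.7, 38.6 and 39.3 in CEpiLC. The naive values at this shared site lay above the CEpiLC values. The other gained site had a peak in at least 1 complete naive list. Evx1, a streak homeobox gene, had a gained site over its start with 14.5, 13 and 12.7 in CEpiLC and 5.51 in naive ESC replicate 1. Nkx1-2, a marker of neuromesodermal progenitors, had 15.1, 17.1 and 12.1 in CEpiLC against 5.64, 5.20 and 6.16 in the complete naive lists. Cdx4 had a lost site 9.52 kb upstream, with 13.7, 10.4 and 19.0 in naive ESC and no CEpiLC peak.

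Among the mesodermal genes, Msgn1, a master regulator of presomitic mesoderm, had 29.5, 30.9 and 45.9 at its promoter in CEpiLC against a single naive peak of 4.15. Tbx6, which acts in the same tissue, had 20.6, 33.0 and 31.5 in CEpiLC and no naive peak at the better-ranked of its 2 gained sites. Hes7, an oscillator of the segmentation clock, had a gained site with 18.9, 21.7 and 19.4 in CEpiLC and a naive peak of 4.60 in replicate 2, beside a shared site with 23.0, 9.08 and 20.0 in naive ESC and 46.8, 76.7 and 89.8 in CEpiLC. Among the MEIS and PBX cofactors of Hox proteins, 5 of 7 held a gained and 2 a lost site. Meis3 had 38.4, 31.0 and 23.2 in CEpiLC and no naive peak, and Meis2 had 18.5, 33.4 and 28.3 against naive peaks of 6.21 and 7.05 in replicates 1 and 3.

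Of 10 neural progenitor genes, 4 held a gained and 1 a lost site. At Irx3 the CEpiLC folds were 5.32, 4.94 and 4.47, and at the Sox1 promoter 5.90, 4.52 and 3.68. The Sox1 site also had a peak of 3.70 in naive ESC replicate 1, so the states overlapped there. Pax3, active in the dorsal neural tube, instead held a strong lost site in an intron, with 52.1, 28.8 and 36.1 in naive ESC against 4.31 in CEpiLC replicate 1. Of all protein-coding loci, 83.5% held no gained, lost or shared site, so lists of 8 genes show little by holding none. Of 8 extraembryonic endoderm markers none held a site of any class, and of 8 fibroblast markers 1 did, Pdgfrb. Its locus included the shared site nearest to Cdx1 and a gained site in a Pdgfrb intron, with 26.6, 53.6 and 46.7 in CEpiLC and no naive peak.

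Lost sites were found at the genes of naive pluripotency. Of 14 such genes, 7 held a lost, 1 a gained and 1 a shared site, and 6 of the 14 held a lost site with no peak in the complete CEpiLC lists, against 7.38% of all loci. Tfcp2l1, which sustains self-renewal downstream of LIF and WNT, had 3 lost sites, the best with 72.3, 40.4 and 71.1 in naive ESC. Esrrb, an orphan nuclear receptor repressed by TCF7L1, also had 3, the best with 28.9, 18.7 and 24.2. Klf2 had 42.2, 31.2 and 63.7 at a site 2.77 kb upstream. None of these 3 had a CEpiLC peak. Tbx3 had 30.7, 25.8 and 26.0 in naive ESC and a CEpiLC peak of 4.40 in replicate 1.

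Of 10 general pluripotency genes, which the epiblast keeps expressing, 3 held a shared site, against 3.80% of all loci. None held a gained or a lost site, where the shares of all loci were 7.49% and 8.04%, so that a list of this size shows little by holding none. At the promoter of Pou5f1 the folds were 35.3, 13.4 and 36.5 in naive ESC and 11.9, 15.6 and 7.14 in CEpiLC, which overlapped on this scale. At Lin28a, a regulator of let-7 processing, they were 40.9, 17.0 and 33.3 against 32.3, 35.2 and 31.2. Prdm14 was the only naive gene with a shared site, at 55.2, 36.1 and 56.6 against 21.1, 15.6 and 14.2. Among primed epiblast genes, Fgf5 held a shared site, and Otx2 and Dnmt3b each held a lost site.

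Shared sites were most frequent at the components and feedback genes of the WNT pathway. Of 18 such genes, 10 (55.6%) held a shared, 6 a gained and 4 a lost site, with 15 distinct shared sites. Sp5, a zinc finger repressor induced by WNT in many tissues, had 72.1, 29.6 and 62.9 in naive ESC and 71.3, 120.1 and 84.3 in CEpiLC at its start site. Axin2, the scaffold of the destruction complex, had 36.3, 18.3 and 44.6 against 40.1, 41.6 and 43.5 at a promoter site. Lef1 had 43.4, 26.3 and 40.9 against 29.6, 28.1 and 34.4 upstream of its start. In each of these 3 the ranges of the deposited folds overlapped. Cdx1 reached 68.7, 56.2 and 109.7 against 51.1, 69.5 and 61.5.

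Axin2 and Lef1 also held 1 gained and 1 lost site each. At Axin2 the gained site had 11.6, 9.24 and 8.57 in CEpiLC against naive peaks of 4.41 and 3.31 in replicates 1 and 3, and the lost site, 23.3 kb away, 12.3, 8.68 and 14.2 in naive ESC. At Lef1 the pair lay 19.1 kb apart, and at Il17rd, an inhibitor of FGF signalling, a gained and a lost site lay 1.58 kb apart. Msgn1 had a lost site 7.47 kb from its gained one, with 46.4, 23.7 and 42.4 in naive ESC. Among all protein-coding loci, 271 (1.24%) held both a gained and a lost site.

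Of 14 FGF and ERK pathway genes, 6 held a gained, 2 a lost and 6 a shared site. Dusp6, the ERK phosphatase, had a gained promoter site of 12.4, 7.73 and 6.41, with naive peaks of 3.87 and 5.92. Etv5, an ERK-induced ETS factor, had a lost intronic site of 47.5, 24.1 and 43.8 and a CEpiLC peak of 4.23 in replicate 1. Of 14 Nodal and BMP pathway genes, 5 held a gained, 5 a shared and none a lost site. Msx1, a BMP target, had a shared site of 46.5, 24.1 and 29.3 against 61.8, 66.6 and 57.5, next to a gained one of 35.1, 12.5 and 9.11.

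**Figure D1:**
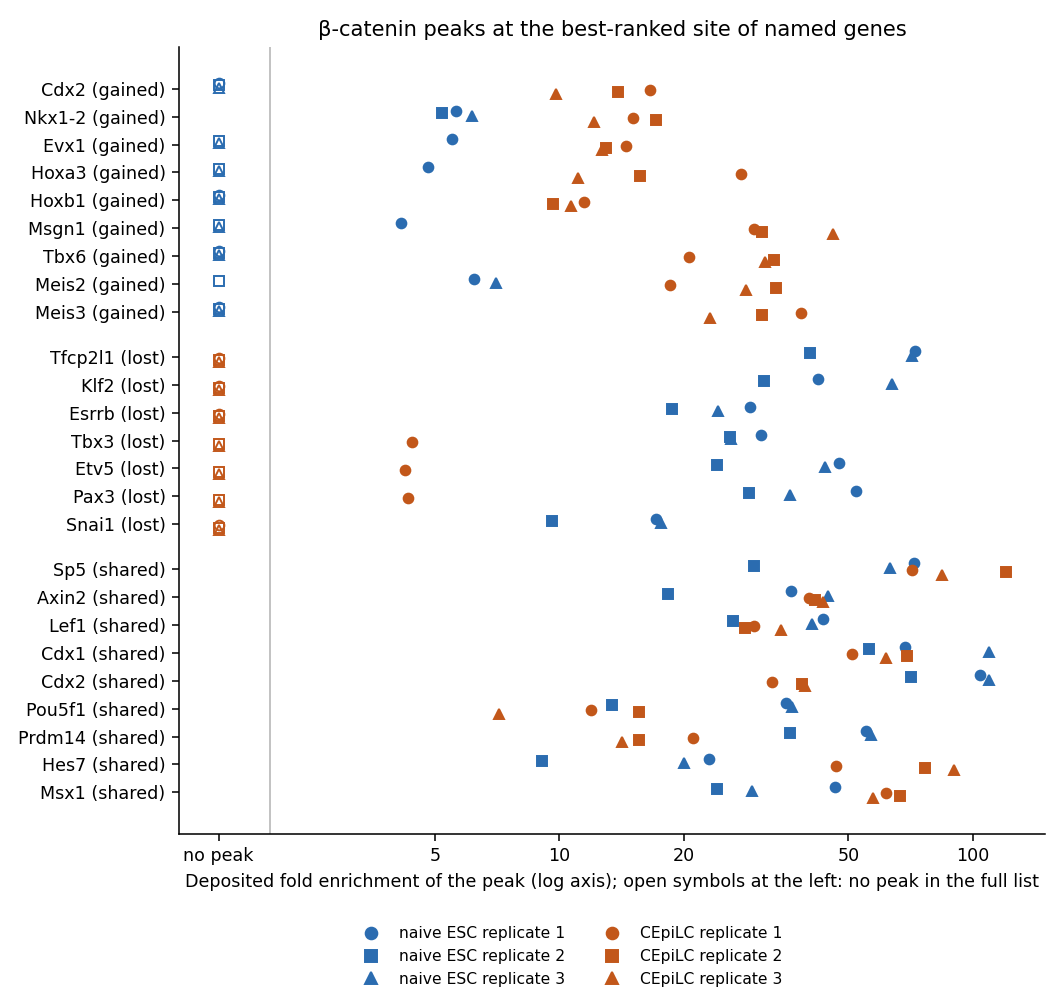
Deposited fold enrichment (x axis, log scale) in each of the 6 libraries at 25 sites, each the best-ranked gained, lost or shared site of a named gene locus; blue marks naive ESC, orange CEpiLC, and symbols the replicate. Open symbols at the left mark libraries whose complete list held no peak there. At Cdx2 the better-ranked gained site had no naive peak, while the shared site was higher in the 3 naive libraries.

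Sites that had a peak in the complete lists of all 6 libraries allowed a graded comparison. On 2694 such sites, limma on quantile-normalised log2 fold found 646 higher in CEpiLC (24.0%) and 646 lower (24.0%) at a Benjamini-Hochberg adjusted p under 0.05. Of the 1486 shared sites, 245 were higher and 544 lower. The test also covered 280 gained sites, of which 128 were higher and none lower, and no lost site. The folds were normalised over this unequal set, where the median log2 difference was 0.609 at gained and -0.352 at shared sites. How far the make-up of the set shaped the balance of higher and lower sites, also among shared sites, was not tested. Gained sites were defined by peak rank in these same libraries, so their direction here is not separate evidence. Sites merged from all deposited peaks gave 648 higher and 647 lower. The log2 differences between the states were largest in the lower direction near Trim42, where the folds were 144.9, 109.6 and 193.0 in naive ESC and 9.01, 5.86 and 4.21 in CEpiLC (log2 difference -4.58 ± 0.260 SE, limma adjusted p = 5.2e-11). The site is intronic, 107.2 kb from the Trim42 start. Near Gbp2 the folds were 123.1, 81.0 and 124.4 against 5.98, 10.1 and 3.68 (-4.20 ± 0.309). The next in this direction lay near Gpr37l1, Sufu, B4galnt2, Tns3, Osbp2 and Ttc28, with differences of -3.93 to -3.35.

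In the upper direction the largest difference was near Pcmtd1, 410.4 kb from its start, with 5.28, 3.81 and 5.15 in naive ESC and 49.4, 62.1 and 71.8 in CEpiLC (log2 difference 3.65 ± 0.269 SE, limma adjusted p = 1.89e-09). Those near Tbc1d4, Pcdh18, Ccser1, Tnfrsf8, Cpxm2, Sdc2 and R3hdm2 followed with 3.55 to 3.18. The nearest start lay up to 1352 kb away. The sites near Pcmtd1, Tbc1d4, Ccser1, Cpxm2 and R3hdm2 were gained sites, a class defined by peak rank in these same libraries. Their p-values are therefore not independent of that choice.

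Within the gene groups the graded sites were few, and their counts are a description. Over all 2694 graded sites, 24.0% were higher and 24.0% lower in CEpiLC. Of 28 at WNT pathway genes, 10 were higher and 3 lower in CEpiLC. The Sp5 start site was higher (log2 difference 0.91 ± 0.215 SE, limma adjusted p = 0.0015). So were a promoter site of Axin2 (0.61 ± 0.241, limma adjusted p = 0.042) and the promoter of Znrf3, an E3 ligase that removes WNT receptors (1.26 ± 0.254, limma adjusted p = 0.000322). Another shared promoter site of Axin2 had a negative difference and did not pass (-0.427 ± 0.274, limma adjusted p = 0.213). A site 6.30 kb upstream of Myc was lower (-1.96 ± 0.281, limma adjusted p = 6.46e-06), and so were both at Tcf7l1. Of 16 at caudal epiblast genes, 5 were higher and 3 lower, the latter at Cdx2 (-1.26 ± 0.206, limma adjusted p = 3.16e-05), Cdx4 (-1.73 ± 0.292) and Wnt5b (-2.58 ± 0.281). Of 7 at Hox genes, 5 were higher and 1 lower. Of 6 at general pluripotency genes none was higher and 5 were lower, among them the 3 at Pou5f1. Nanog, a core naive factor, had a site 4.90 kb upstream at 20.4, 9.18 and 11.6 against 4.23, 4.31 and 4.46 (-1.56 ± 0.288, limma adjusted p = 0.000126). Klf4 was the exception among the naive genes, with 25.8, 5.72 and 14.8 against 25.8, 20.2 and 22.8 at its promoter (1.03 ± 0.315, limma adjusted p = 0.0101). There naive ESC replicate 1 equalled the highest CEpiLC value before normalisation, so the deposited folds of the states overlapped. The Cdx1 site did not pass the test (log2 difference -0.29 ± 0.211, limma adjusted p = 0.283).

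The classes lay at different places relative to genes. A promoter was taken as 1 kb either side of an annotated start. Promoters held 469 of 2777 gained sites (16.9%), 86 of 3155 lost sites (2.73%) and 105 of 1486 shared sites (7.07%), against 14.9% of all merged sites. Introns held 38.6%, 49.2% and 43.5%, and intergenic sequence 40.6%, 44.1% and 46.4%. Coding exons held under 1% of each class, 0.756%, 0.824% and 0.269%. The median distance to the nearest start was 22729 bp for gained, 24794 bp for lost and 27748 bp for shared sites, and 22.0%, 17.7% and 22.4% of them lay over 100 kb away. Among gained sites with no peak in the complete naive lists the promoter share was 8.43%, against 2.32% for the corresponding lost sites.

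By library, 5.94%, 4.74% and 5.70% of the 10930 peaks were at promoters in naive ESC and 18.4%, 18.9% and 23.3% in CEpiLC. The groups did not overlap, and the means differed by 14.7 percentage points. An exact two-sided permutation test gave p = 0.1, the smallest value that 3 against 3 libraries allow. The share rose down the CEpiLC lists. Among the first 1000 peaks it was 6.30% to 6.80% in CEpiLC and 3.80% to 4.50% in naive ESC, and among peaks ranked after 5000 it was 23.9% to 30.5% and 5.14% to 6.91%. In each CEpiLC library the promoter share was thus highest among the lowest-ranked peaks.

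**Figure D2:**
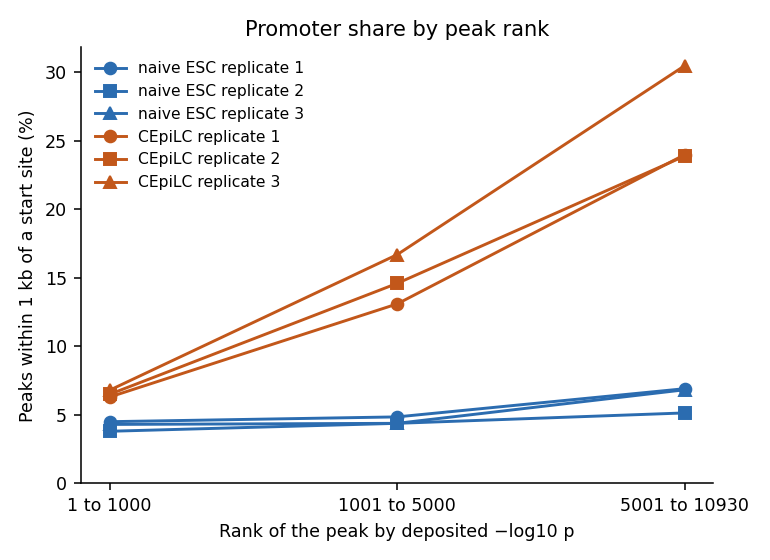
Percent of peaks within 1 kb of a start site (y axis) in 3 ranges of peak rank (x axis), 1 line per library, naive ESC in blue and CEpiLC in orange. Beyond rank 5000 the 3 CEpiLC libraries lay at 23.9% to 30.5% and the 3 naive libraries at 5.14% to 6.91%.

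Sequence words were searched within 100 bp of each summit, on both strands. The words were CTTTGAA and CTTTGAT for TCF, CATTGT and CTTTGT for SOX, ATGCAAAT for OCT, TTTATGG and TTTATTG for CDX, GGTGTG for brachyury, GGGTGTGG and GGGCGTGG for KLF and TCAAGGTCA for ESRRB. The first KLF word contains the brachyury word. A match shows the letters, not a bound factor. The TCF word was present at 45.4% of gained, 34.9% of lost and 59.6% of shared sites, against 8.21%, 8.21% and 8.75% of windows 5000 bp away and 30.5% of all merged sites. It was centred on the summit, with 4.39, 3.06 and 6.53 words per kb in the middle 40 bp of gained, lost and shared sites and 0.425, 0.426 and 0.506 beyond 300 bp.

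The SOX word was more frequent at lost than at gained sites. It was present at 27.3% of gained sites, near the 25.7% of windows 5000 bp away, and at 55.5% of lost and 40.8% of shared sites. A TCF word without a SOX word was found at 35.1% of gained and 18.1% of lost sites, and a SOX word without a TCF word at 17.0% and 38.6%. At gained sites with no peak in the complete naive lists the SOX share was again 27.3%, and at the corresponding lost sites 55.8%. The gained promoter sites held the TCF word at 25.8%, against 49.4% of gained sites elsewhere.

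By library the SOX word was in 49.7%, 43.2% and 48.4% of naive peaks and in 32%, 29.4% and 26.4% of CEpiLC peaks, with no overlap. The difference was -17.9 percentage points (exact two-sided permutation p = 0.1, adjusted over 7 words 0.175, and no smaller p is possible here). The TCF word was in 39.6%, 31.2% and 38.3% of naive and 41.4%, 39.8% and 34.8% of CEpiLC peaks, which overlapped. Among the first 2000 peaks of each library it was in 52.5%, 51.1% and 52.9% of naive and 58.9%, 62.7% and 59.9% of CEpiLC peaks, with no overlap and a difference of 8.32 percentage points (exact two-sided permutation p = 0.1). The ESRRB word, bound by a naive pluripotency receptor, was in 2.85%, 2.02% and 2.73% of naive peaks and 0.274%, 0.311% and 0.293% of CEpiLC peaks, below the 0.604% to 0.622% of windows away from the latter. It was at 122 of 3155 lost sites and at 3 of 2777 gained sites. The KLF word was at 6.56% of lost and 3.13% of gained sites, and the OCT word at 4.88% and 2.09%, and 6.80% of shared sites. The CDX word, at 6.34% of gained sites, was not above the 6.99% of windows 5000 bp away, and the brachyury word was at 17.5% of gained and 16.9% of lost sites.

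**Figure D3:**
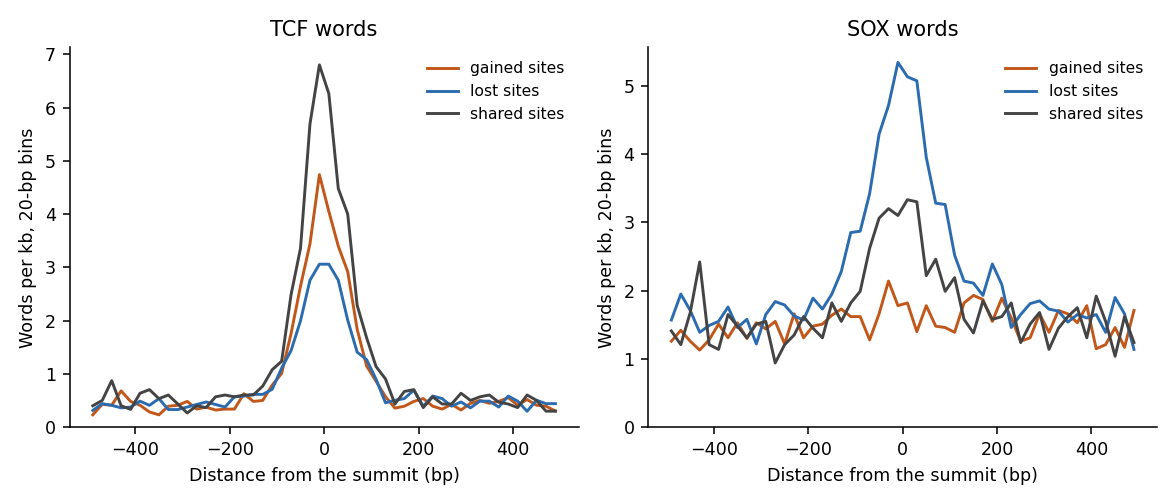
Density of TCF words (left) and SOX words (right) per kb (y axis, 20-bp bins) against distance from the summit (x axis, bp) at gained, lost and shared sites. Within 20 bp of the summit SOX words reached 5.23 per kb at lost sites and 1.80 at gained sites, where the density beyond 300 bp was 1.42.

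The other proteins precipitated from the same states were then read at these sites, with lists of equal length within each protein. SOX2, the HMG-box pluripotency factor, had a peak at 72.3% ± 13.5 (SD, n = 3) of lost sites in naive ESC and at 16.3% ± 2.13 in CEpiLC. At gained sites the shares were 8.92% ± 0.731 and 52.6% ± 8.48. At shared sites they were 65.9% ± 8.43 and 78.8% ± 3.77. At lost sites the naive libraries thus lay above the CEpiLC libraries, and at gained sites below them. At the gained sites the CEpiLC libraries gave 52.8%, 43.9% and 60.9%.

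LEF1, an activating partner of β-catenin, had a peak at 38.2%, 44.3% and 45.3% of gained sites in CEpiLC and at 0.396%, 1.80% and 1.48% in naive ESC. At lost sites the naive LEF1 libraries spread widely, at 0.412%, 38.1% and 8.21%, and the CEpiLC libraries were under 1%. At shared sites the naive values were 2.76%, 62.4% and 24.2%, and naive LEF1 replicate 1 therefore carries little information. TCF7L1, which represses targets in the absence of β-catenin, had a peak at 20.0%, 21.8% and 22.1% of lost sites in naive ESC and at none of the gained ones in 1626 peaks per list. In CEpiLC it was at 4.93%, 14.7% and 15.8% of gained sites. TCF7L2 was at 20.1% ± 3.25 of gained sites in CEpiLC and 2.52% ± 0.281 in naive ESC. Lists were cut to the shortest of each protein, 4443 peaks for LEF1 and 4627 for TCF7L2, or for SOX2 to a set limit of 20000. Levels are therefore not comparable between proteins.

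The difference between states in the share of gained minus the share of lost sites was 99.6 percentage points for SOX2, 56.2 for LEF1, 33.1 for TCF7L1 and 28.8 for TCF7L2. For each the 3 CEpiLC libraries lay above the 3 naive ones (exact two-sided permutation p = 0.1, adjusted over 4 proteins 0.1, the smallest possible). Without replicate 1 of both states the LEF1 difference was 65.7.

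β-catenin was also precipitated from SOX2-TetON cells, a line without endogenous Sox2 that carries a doxycycline-dependent transgene, differentiated like CEpiLC with doxycycline (SOX2-ON) or without it (SOX2-OFF). With 3423 peaks per library, peaks lay at 34.8%, 19.7% and 34.0% of gained sites in SOX2-OFF and at 7.17%, 6.70% and 9.69% in SOX2-ON. At lost sites the shares were 2.00%, 3.30% and 1.97% in SOX2-OFF and 13.7%, 16.5% and 13.5% in SOX2-ON. Neither pair of groups overlapped. The difference in gained minus lost shares was 33.8 percentage points (exact two-sided permutation p = 0.1, the smallest possible). At shared sites SOX2-OFF had 70.2% ± 5.04 and SOX2-ON 63.6% ± 3.21 (SD, n = 3).

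**Figure D4:**
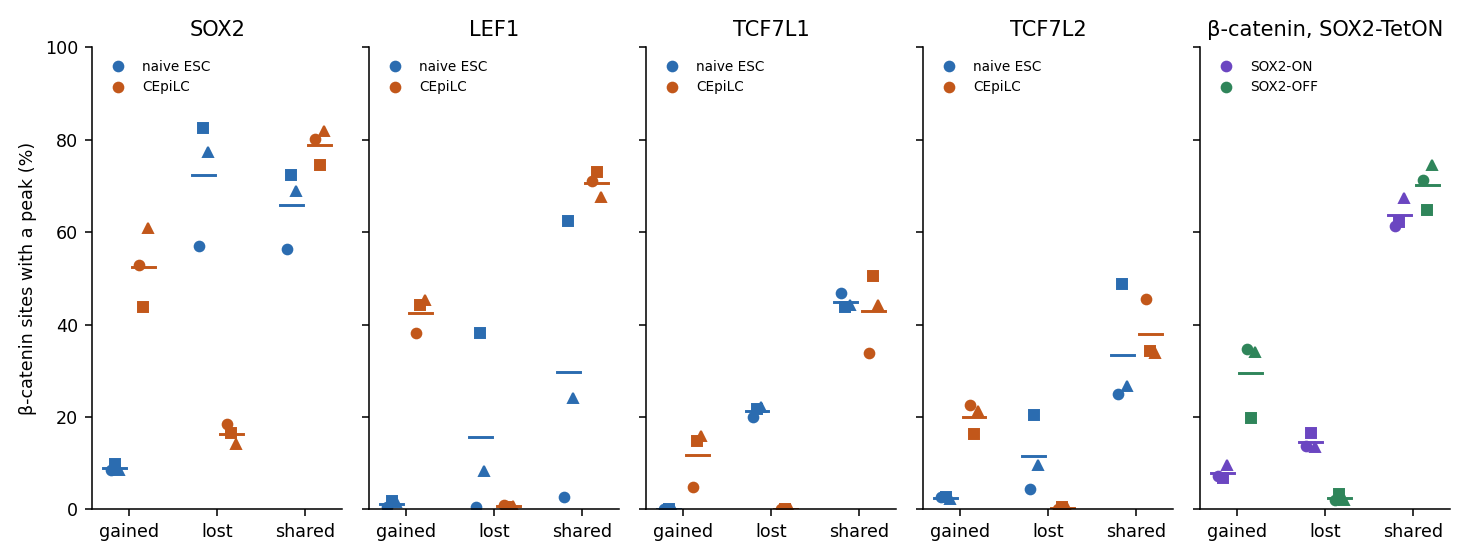
Percent of gained, lost and shared β-catenin sites (x axis groups) that held a peak of SOX2, LEF1, TCF7L1, TCF7L2 or β-catenin of SOX2-TetON cells (y axis), 1 symbol per library and the mean as a bar. SOX2 peaks lay at 57.1% to 82.5% of lost sites in naive ESC and at 43.9% to 60.9% of gained sites in CEpiLC.

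Many of the strongest gained sites were near copies of one another. Windows of 201 bp around the summits were compared by the 15-base words they share, without use of the classes, and sites sharing at least 40 words were linked. A copy elsewhere among the merged sites was found for 14.9% of gained, 13.8% of lost and 13.9% of shared sites, against 6.95%, 7.39% and 7.67% of windows 5000 bp away. Among the 200 best-ranked sites the share was 51.0% for gained, 15% for lost and 12% for shared. Of the 8 best-ranked gained sites 7 lay in such groups, here called families and numbered by size. This comparison was chosen after the sites had been seen and is a description. How reads that map to several copies were treated is not given in the sources used here, and the cells are of strain 129 while the reference is mm10.

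Family 1, with 558 sites, held 201 gained, 86 lost and 33 shared sites. The family's sites with a peak numbered 192, 162 and 204 in the naive lists and 336, 349 and 310 in the CEpiLC lists. Of them 98.4% lay in sequence that RefSeq soft-masks as repeats, 28.0% held a TCF word and 50.7% a SOX word. In the mm10 assembly 2141 places carried at least 40 of the family's words within 201 bp, and 10.4% of these overlapped a gained site. The 3 best-ranked gained members, nearest to Vmn2r2 (chr3:64121783-64121903), Slc10a2 (chr8:5448309-5448429) and Vwc2 (chr11:10867856-10867976), are shown on the plus strand. The second and the third matched the first at 80 of 91 and 93 of 122 aligned positions.
Vmn2r2: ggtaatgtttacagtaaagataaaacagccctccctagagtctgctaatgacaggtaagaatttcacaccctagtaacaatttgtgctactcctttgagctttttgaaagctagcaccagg
Slc10a2: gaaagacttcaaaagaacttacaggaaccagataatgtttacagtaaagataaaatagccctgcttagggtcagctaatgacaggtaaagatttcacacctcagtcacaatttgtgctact
Vwc2: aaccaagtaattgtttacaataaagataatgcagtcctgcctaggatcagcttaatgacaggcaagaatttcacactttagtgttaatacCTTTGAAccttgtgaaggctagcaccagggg

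The folds at the Vmn2r2 site were 74.2, 124.7 and 118.6 in CEpiLC and 6.79 and 6.34 in naive ESC replicates 1 and 3. At the Slc10a2 site, 343.0 kb from that gene, they were 62.7, 98.6 and 91.3 against 3.77 in naive replicate 1. SOX2 peaks lay in all 3 CEpiLC libraries and no naive library at both.

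Family 3, with 369 sites, held 108 gained, 13 lost and 122 shared sites, and 89.2% of its sites held a TCF word against 8.67% with a SOX word. Of its best-ranked shared members, the windows near Hsd17b7 and Pcmtd1 matched that near Gucy1a2 at 74.5% and 70.9% of aligned positions. The mm10 assembly held 45981 places with the family's words, of which 0.278% overlapped a gained and 0.307% a shared site. Family 3 sites with a peak numbered 196, 159 and 195 in naive ESC and 292, 321 and 327 in CEpiLC. LEF1 peaks lay on average at 64.6% of them in CEpiLC and at 15.2% in naive ESC. None lay within 1 kb of a start, and their median distance was 61461 bp. The Pgr site printed above belongs to it, as do the best-ranked gained sites near Pkdcc, Basp1 and Cnbd1 and graded sites of both directions, those near Pcmtd1, Tbc1d4, Pcdh18, Ccser1 and Tnfrsf8, higher in CEpiLC, and those near B4galnt2 and Osbp2, lower in CEpiLC.

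Family 4, with 242 sites, was found almost wholly in naive ESC, with 96 lost, no gained and no shared sites. Its sites with a peak numbered 150, 142 and 190 in the naive lists and 5, 2 and 7 in the CEpiLC lists. A SOX word was present at 81.8% and a TCF word at 10.3% of them. Naive SOX2 libraries had a peak at 48.5% of the sites on average and CEpiLC SOX2 libraries at 1.79%. The assembly held 3684 places with the family's words, of which 2.93% overlapped a lost site. Besides the Fancm site printed above, members lie nearest to Trim24 (chr6:37825562-37825682, minus strand) and Slc38a11 (chr2:65436990-65437110, plus strand). They matched the Fancm window at 66 of 73 and 110 of 120 aligned positions.
Trim24: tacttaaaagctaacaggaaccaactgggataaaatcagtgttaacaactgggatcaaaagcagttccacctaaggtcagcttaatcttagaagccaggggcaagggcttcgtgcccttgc
Slc38a11: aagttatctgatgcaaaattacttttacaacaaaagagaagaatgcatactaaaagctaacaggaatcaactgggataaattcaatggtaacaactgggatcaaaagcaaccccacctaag

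The folds at the Fancm site were 96.4, 64.5 and 134.0 in naive ESC, at Trim24 60.5, 45.5 and 56.5 and at Slc38a11 44.3, 34.6 and 57.3. No CEpiLC library had a peak at these 3.

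Families 2, 5 and 6 were mostly naive as well. Family 2, with 401 sites, had 115 lost against 3 gained sites, but its members were linked through unlike sequence. Windows of its best-ranked members matched at 59.0% to 76.9% of aligned positions, a range that includes the values of family 3. Family 5, with 117 sites, had 28 lost and 2 gained sites and a TCF word at 83.8%. Its best-ranked lost members carried 2 TCF words each, as shown for Sept1 (chr7:127225319-127225439, plus strand), with folds of 53.6, 34.6 and 43.7, and for Utp6 (chr11:79976860-79976980, minus strand), with 35.9, 23.1 and 35.8. Neither had a CEpiLC peak, and the windows matched at 82 of 90 aligned positions. A further member near Ip6k2 matched the Sept1 window at 88 of 118. Family 6, with 106 sites, had 35 lost and 1 gained site, a SOX word at 85.8% and SOX2 peaks at 82.4% of sites in naive ESC and 52.8% in CEpiLC.
Sept1: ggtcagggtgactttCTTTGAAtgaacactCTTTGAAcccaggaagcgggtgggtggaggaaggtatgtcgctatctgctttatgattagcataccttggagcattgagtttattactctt
Utp6: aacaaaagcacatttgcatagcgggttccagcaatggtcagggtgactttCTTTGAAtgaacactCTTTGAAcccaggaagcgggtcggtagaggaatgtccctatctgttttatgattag

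**Figure D5:**
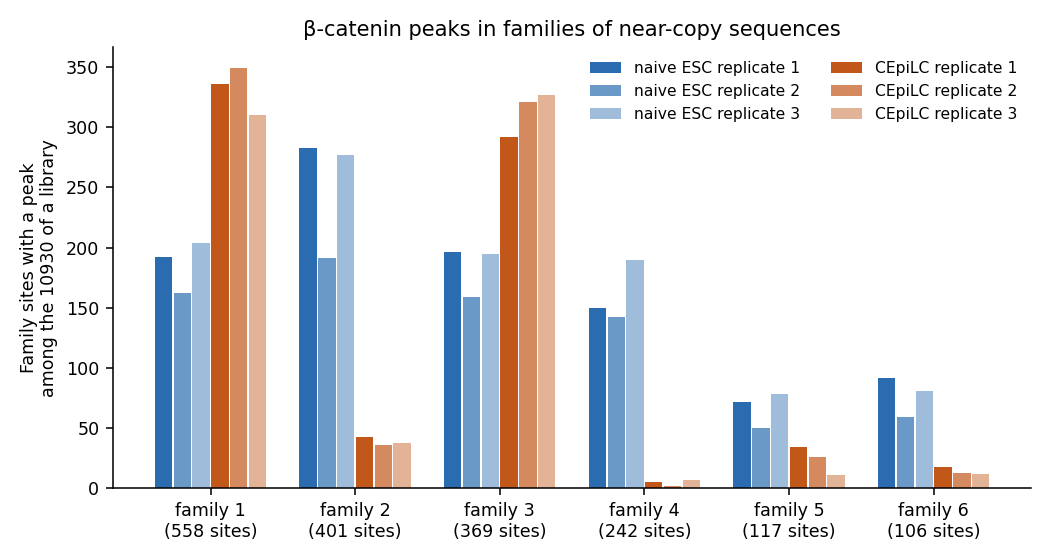
Number of sites of each of the 6 largest families (x axis) with a peak among the 10930 of a library (y axis), 1 bar per library, naive ESC in blue shades and CEpiLC in orange shades. Family 4 had 142 to 190 such sites in naive ESC and 2 to 7 in CEpiLC, while families 1 and 3 had more in the 3 CEpiLC libraries.

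Some genes were the nearest start of several sites of one class, which need not lie close together. By nearest start site, Pcdh18, a protocadherin, had the most gained sites, 9 over 1924 kb with no lost site. Cdh2, which encodes N-cadherin, followed with 7 over 1506 kb and also had 3 lost and 1 shared. Dsc3, Nkain3, Cdh20 and Zfp703 had 5 each, over 309.2 to 1243 kb. The most lost sites were at Rybp, a subunit of Polycomb complexes, and at Smad7, an inhibitor of TGF-β and BMP signalling, with 7 each, of which all had no peak in the complete CEpiLC lists. Those of Smad7 lay 60.8 to 157.1 kb from its start, outside the locus counted among the Nodal and BMP pathway genes. Hs6st1, Msi2 and Oxr1 had 6 lost sites each and Glis3 had 5. Of the 6 genes listed for shared sites, Tle3, a Groucho co-repressor that TCF factors recruit, had 5. Axin2, Med13l, Rgma, Cachd1 and Tnfrsf19 had 4 each, and all of these genes also had a lost site. Gained sites had 2193 nearest genes and lost sites 2443, with 496 genes in both, which is 22.6% of the former and 20.3% of the latter.

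The best-ranked lost sites lay nearest to Filip1l, Fancm, Thap8, Fam49b, Irf2bpl, Kdm6b, Mterf3 and Ubxn2a. At Filip1l the folds were 122.4, 88.6 and 131.3 in naive ESC against 4.86 in CEpiLC replicate 1. At all 8, at least 2 of the 3 naive libraries of SOX2 and of LEF1 had a peak, and so did all 3 of TCF7L1, while no CEpiLC library of LEF1 or TCF7L1 did. SOX2 kept a peak in all 3 CEpiLC libraries near Ubxn2a, in 2 near Filip1l and in 1 each near Thap8 and Fam49b. It had none in CEpiLC near the others. The best-ranked gained sites, nearest to Pkdcc, Vmn2r2, Slc10a2, Vwc2, Basp1, Zfp516, Pgr and Cnbd1, had peaks of LEF1 and TCF7L1 in all 3 CEpiLC libraries and in none of the naive ones. At Pkdcc, 720.6 kb away, the folds were 59.8, 140.1 and 156.2 against 6.41 in naive replicate 1. The best-ranked shared sites, nearest to Lrmda, Cenpx, 2510009E07Rik, Mapkap1, Gucy1a2, Zfp703, Foxb1 and Sp4, had SOX2 and TCF7L1 peaks in all 6 libraries of each protein. At Lrmda the folds were 148.9, 81.0 and 131.4 in naive ESC and 78.9, 176.4 and 181.1 in CEpiLC, which overlapped.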

How the data were processed

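The authors aligned single-end reads with BWA to mm10, filtered them and called peaks with MACS2 in each library (nf-core/ChIP-seq pipeline). Neither the pairing of input libraries nor the treatment of multiply mapped reads is given in the sources used here. The deposited lists give per peak a fold enrichment (ratio to local background), −log10 of a p-value, −log10 of a q-value, a score and a summit. They hold no counts, so read depth and counting error are unknown, and peaks under the threshold are not listed.

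The 10930 peaks with the highest −log10 p per library were merged (overlap of at least 1 bp). Sites were assigned to starts and features of GENCODE vM21. No peak passed a chromosome end of GRCm38 (0 peaks). Sequences are from the RefSeq copy of GRCm38.p6. Shares were compared over libraries by exact permutation tests. Graded fold was tested with limma 3.58.1 in R 4.3.3 with a mean-variance trend. Tested on simulated data for 2694 sites, it recovered 42.0% of log2 differences of 1 and 89.0% of 2. Other tools were Python 3.11.15, pandas 2.3.3, numpy 2.4.6 and pysam 0.24.0.

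The comparison, gene lists and words were chosen with earlier results of these data known. Named sites were the 8 best-ranked per class and the 8 largest graded differences per direction, 1 per nearest gene, the 6 genes with most sites, and up to 4 genes per list and class. Other lengths, rankings, windows and replicate subsets were tried. The labels call the replicates biological. No library was identical to another, and the highest Jaccard index of 2 libraries was 0.502. Peak lists of the other proteins in SOX2-TetON cells were not used here.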

Additional observations from a re-analysis of the deposited data

How the results depend on the processing

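Gained, lost and shared sites numbered 1292, 1394 and 574 with the 3423 peaks of the shortest of all β-catenin lists, 811, 836 and 340 with 2000 peaks, and 1454, 9601 and 2725 with all deposited peaks. With a −log10 q of at least 5 there were 1417 gained and 6837 lost sites. Requiring absence from the complete lists of the other state left 1115 gained sites. Leaving out replicates gave 3594 to 3962 gained, 3647 to 5074 lost and 1570 to 2051 shared sites, the highest lost count without replicate 2. With absence from the complete lists, which was added after seeing the data, they gave 1658 (without replicate 2), 1783 (without replicate 3) and 2196 gained sites and 3259 to 4601 lost sites. The difference in median distance to a start turned to 0.0848 (log10 bp, CEpiLC minus naive ESC) with 2000 peaks. The difference in the TCF word ranged from -0.823 to 5.23 percentage points without single replicates and was 8.32 with 2000 peaks, and that in the CDX word ranged from -0.178 to 2.09. The brachyury difference was 0.473 with a 50-bp window, 1.47 with 2000 peaks and -1.25 to 0.261 without single replicates. The other comparisons, the SOX, ESRRB, KLF and OCT words, the promoter share, the replicate agreement and the other proteins, kept their sign in each alternative run. With 2000 peaks per list the SOX2, LEF1 and TCF7L2 differences were 33.1, 29.2 and 12.4 percentage points, and with all peaks that of TCF7L1 was 93.9. Near copies linked at 30 or 60 shared words, added after seeing the data, were found for 16.1% or 11.3% of gained, 16.1% or 9.06% of lost and 15.8% or 9.15% of shared sites. Same-numbered libraries of the states correlated in their deviations from the group mean at 0.158, 0.0234 and 0.0545, so the numbers were not taken as pairs. A replicate block in limma called 664 sites higher and 648 lower. Leaving out replicates gave 490 to 513 higher and 503 to 518 lower. With 3 libraries per state, no exact test here can fall below 0.1.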
